A study of Paeonia ostii with 18 samples.

Results

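The first 6 d of artificial chilling was compared with no chilling in flower buds of tree peony (Paeonia ostii 'Feng Dan Bai'). The comparison was made by the labelled chilling time, which gave 6 of the 18 single-channel Agilent arrays of the series, 3 of 6 d and 3 of 0 d. The chilled buds came from 4-year-old plants kept at 0 to 4 °C for 6 d, and the unchilled buds from plants of the same age and cultivar at 0 d, before that treatment. Each replicate pooled 3 plants with 3 mixed buds from each, so that a value is a mean over plants and over all cells of the bud. The other 12 arrays, of 12, 15, 18 and 24 d, gave the shared estimate of the spread.

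Buds of tree peony enter endo-dormancy in autumn, a state that is held within the bud and that is lifted by a period of cold. In woody plants chilling is known to alter gibberellin (GA) metabolism, cold signalling and the use of stored carbohydrate before any growth can be seen. GA acts by binding the receptor GID1, which then brings DELLA proteins, the repressors of GA responses, to degradation by the proteasome. GA20ox makes precursors of active GA and GA2ox inactivates it. A count of transcripts in a whole bud cannot tell fewer cells of a type from less RNA per cell.

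All 6 arrays lay on slide 1, so slide did not separate them, but their row on the slide did in part. Row 1 held the 3 arrays of 0 d and replicate 1 of 6 d, and row 2 held replicates 2 and 3 of 6 d. The part of the row in the results was not tested, and the difference of replicate 1 of 6 d from the 0 d arrays, which lies within row 1, is given beside the main results. The share of probes well above background was 82.2 to 92.2%, lowest in replicate 3 of 0 d, and no spot was saturated. Pearson correlations were 0.977 to 0.983 between arrays of 6 d and 0.967 to 0.978 between arrays of 0 d, against 0.966 to 0.976 between a 6 d and a 0 d array.

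In limma's test, 12 of 14957 probes (0.0802%) had an adjusted p under 0.05 between 6 d and 0 d, of which 7 rose (0.0468%) and 5 fell (0.0334%). These calls lay near the threshold. With only the 6 arrays compared in the fit 5 probes were called and with slide and row as a block 1, none of them among the 12. With each array of the series left out in turn 0 to 144 were called, the highest count being that without replicate 1 of 6 d. At an unadjusted p under 0.05 there were 2326 probes (15.6%), 1273 (8.51%) higher and 1053 (7.04%) lower at 6 d. The median log2 fold change over all probes was 0.03, and the median standard error of a fold change was 0.27. All 6 arrays measured 14881 probes. Among these, every 6 d array was above every 0 d array for 1769 probes (11.9%) and below every 0 d array for 1551 (10.4%), or 22.3% in either direction. These shares are the background for the gene groups below. Among the 3747 probes that the study's tables describe, they were 20.3% and 16.4%, because most of those probes had been listed for differing between times on these same arrays.

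The rises with the lowest adjusted p were those of fimbrin, an actin-bundling protein, and PAB2. Fimbrin (CUST_10004) had log2 signals of 10.88, 11.38 and 11.19 at 6 d and 9.82, 9.88 and 9.96 at 0 d. The 6 d arrays were all above the 0 d arrays, by 1.26 on the log2 scale (SE 0.17, 2.4-fold, limma adjusted p = 0.0283), and by 0.99 for replicate 1 of 6 d alone. PAB2 (CUST_13420), listed by the study under response to abiotic stimulus, had log2 signals of 15.45, 15.37 and 15.08 at 6 d and 13.91, 14.11 and 14.29 at 0 d. Its log2 fold change was 1.20 (SE 0.17, limma adjusted p = 0.0283), and replicate 1 of 6 d was the highest of the 6 arrays.

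A probe matched to AT5G54470 of Arabidopsis, which encodes a B-box zinc finger protein, rose as well. AT5G54470 (CUST_1328) had log2 signals of 6.06, 6.24 and 6.79 at 6 d and 4.87, 4.37 and 4.30 at 0 d, and none of the 0 d arrays was well above background. With the lowest signal well above background in place of the 0 d values, it was at least 2.32-fold higher at 6 d (log2 fold change 1.85, SE 0.30, limma adjusted p = 0.0498). A second B-box probe, BBX32 (CUST_13233), had log2 signals of 10.99, 10.65 and 10.94 at 6 d and 9.16, 9.87 and 9.42 at 0 d. BBX32 was higher on every 6 d array but was not called (log2 fold change 1.38, SE 0.34, limma adjusted p = 0.104).

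The largest rise among the 12 was that of CUST_7733, for which the tables held no description. Its log2 signals were 11.76, 12.21 and 11.70 at 6 d and 8.72, 8.64 and 10.14 at 0 d (log2 fold change 2.72, SE 0.45, 6.61-fold, limma adjusted p = 0.0498). Replicate 3 of 0 d lay nearest to the 6 d arrays, below all of them. The other probes that rose matched only predicted proteins with no described function, and their log2 fold changes were 1.35 for CUST_12944, 1.29 for CUST_10435 and 0.80 for CUST_1953. For CUST_10435, replicate 1 of 6 d, at 11.05, lay closer to the 0 d arrays (10.29, 10.52 and 10.31) than did replicates 2 and 3 of 6 d, at 11.85 and 12.07.

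The probe with a named protein that fell was a cation-transporting ATPase, of the family of pumps that move ions across membranes. The ATPase (CUST_3569) had log2 signals of 9.21, 8.05 and 8.30 at 6 d and 10.26, 10.71 and 10.39 at 0 d. Its log2 fold change was -1.94 (SE 0.27, limma adjusted p = 0.0283), a level 3.82-fold higher in buds of 0 d. Replicate 1 of 6 d was below the lowest 0 d array, and replicates 2 and 3 of 6 d were lower still. CUST_958, with no description, had the largest fall among the 12 (log2 fold change -2.44, SE 0.41, limma adjusted p = 0.0498). Only 1 of its 6 d arrays and 2 of its 0 d arrays were well above background, so the size of that fall is poorly known. The log2 fold changes of the other 3 that fell were -0.98 for CUST_12549, -0.93 for CUST_12853 and -0.85 for CUST_12400, and each matched a predicted protein with no described function.

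**Figure D1:**
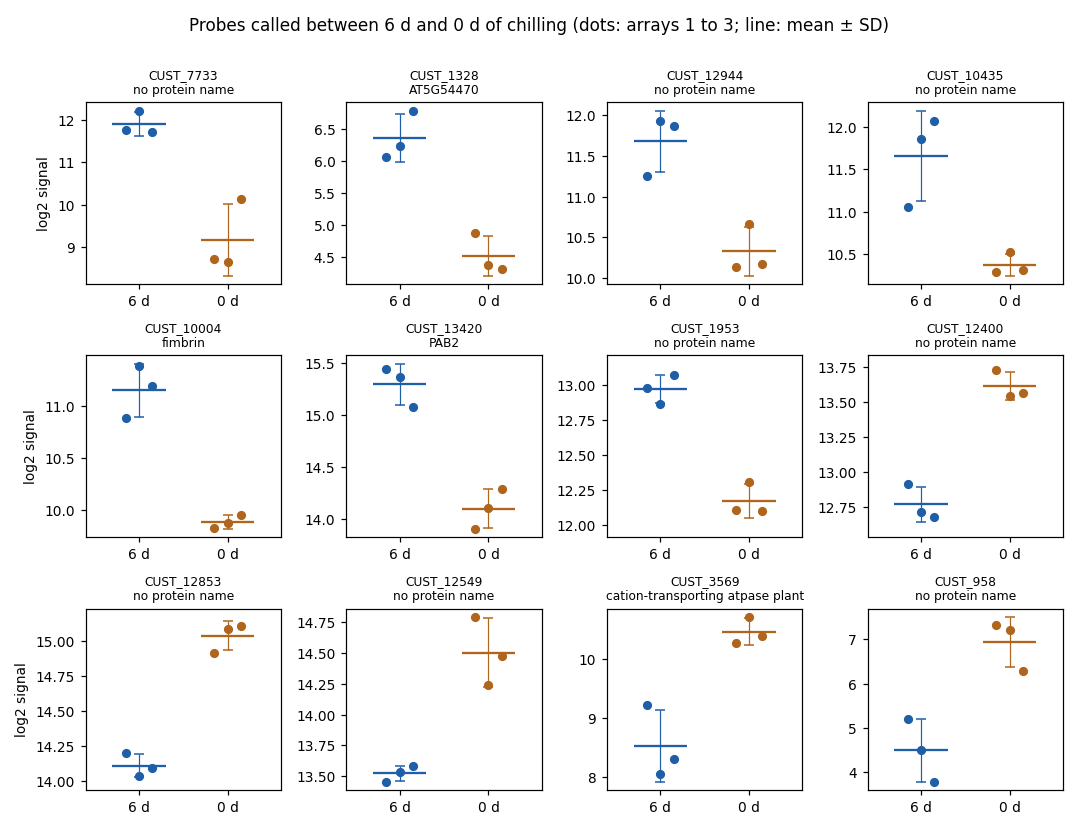
Log2 signal of the 12 probes called between 6 d and 0 d, with 6 d on the left and 0 d on the right of each panel. Dots are the 3 arrays of a time in the order of replicate, and lines are means with SD. The arrays of 6 d and 0 d did not overlap for any of the 12 probes, and the smallest log2 difference was the 0.80 of CUST_1953.

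The levels of these probes were followed over the rest of the chilling period, for which most arrays lay on other slides. Fimbrin averaged 9.89, 11.15, 10.95, 11.26, 11.57 and 10.95 in log2 signal at 0, 6, 12, 15, 18 and 24 d. The ATPase averaged 10.45, 8.52, 8.37, 8.55, 8.50 and 9.02 at the same times. AT5G54470 averaged 4.51, 6.36, 5.03, 5.76, 5.74 and 6.49, with 5.14, 4.36 and 5.60 on the 3 arrays of 12 d. No probe was called between 12 d and 6 d in limma's test (950 at an unadjusted p under 0.05, or 6.35%, with 2.89% higher and 3.46% lower at 12 d). The arrays of 12 d lay all above those of 6 d for 4.43% of probes and all below for 5.26%. Between 12 d and 0 d, a comparison that shares the 0 d arrays, 468 probes (3.13%) were called, 1.61% higher and 1.52% lower, and 3310 (22.1%) had an unadjusted p under 0.05, 1715 higher and 1595 lower. Of the 12 probes, AT5G54470 was the one not called between 12 d and 0 d (limma adjusted p = 0.319).

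**Figure D2:**
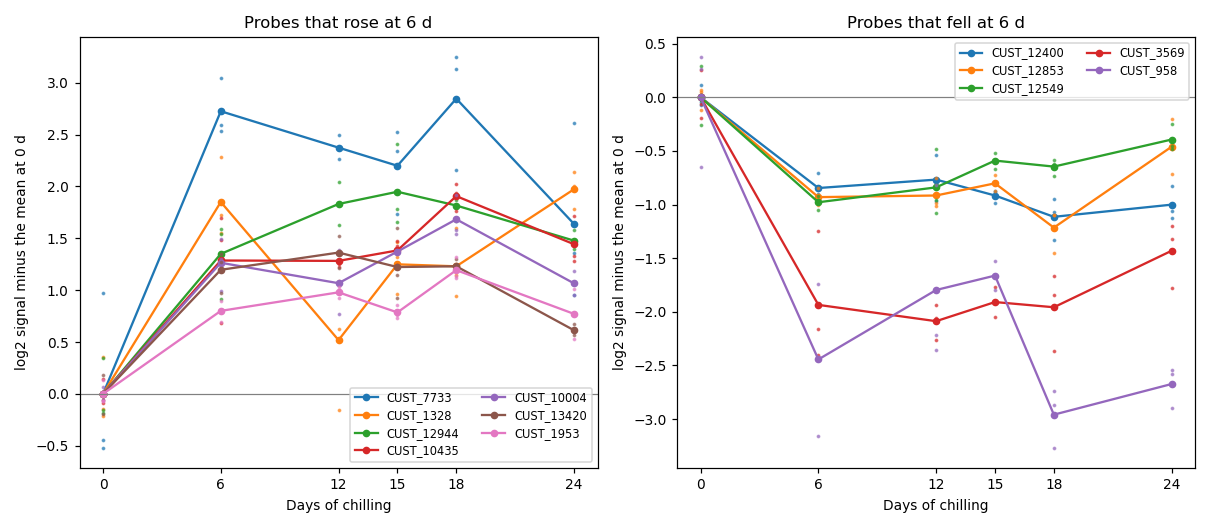
Mean log2 signal minus the mean at 0 d (vertical axis) of the 12 probes called at 6 d, over the days of chilling (horizontal axis). Large points are means, small points are arrays. All 7 probes on the left kept a mean above that of 0 d from 6 to 24 d and all 5 on the right a mean below it, where CUST_12853 rests on 2 arrays at 24 d, and AT5G54470 (CUST_1328) had its lowest mean after 0 d at 12 d.

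The GA probes were taken from the study's own list of 51 probes of GA response and signalling. None of the 51 was called. Every 6 d array was above every 0 d array for 9 of them (17.6%) and below for 7 (13.7%), with a median log2 fold change of -0.06. With each array scaled to its 75th percentile the counts were 7 above and 9 below, and without normalization 11 above and 3 below, so the direction of the list turned with the scaling.

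Of the enzymes, GA20ox (ATGA20OX, CUST_6430), which makes GA precursors, had log2 signals of 13.13, 13.78 and 14.11 at 6 d and 12.32, 12.09 and 11.89 at 0 d. All 6 d arrays were higher, by 1.57 on average (SE 0.53), and the probe was not called (limma adjusted p = 0.195). GA2ox (ATGA2OX, CUST_13238), which inactivates GA, had log2 signals of 10.88, 10.35 and 10.14 at 6 d and 11.68, 11.61 and 11.54 at 0 d. All 6 d arrays were lower, with a log2 fold change of -1.15 (SE 0.25, limma adjusted p = 0.0873). The ent-kaurene synthase GA2 (CUST_5965), which acts early in GA synthesis, had overlapping arrays, with log2 signals of 8.02, 7.78 and 7.76 at 6 d and 7.72, 7.84 and 8.17 at 0 d. For both GA20ox and GA2ox the difference was smallest in replicate 1 of 6 d, at 1.03 and -0.73 from the 0 d mean, and largest in replicate 3, at 2.01 and -1.47.

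Of the receptors, GID1A (CUST_11867) had log2 signals of 14.83, 15.11 and 14.85 at 6 d and 15.79, 15.45 and 15.13 at 0 d. The 6 d arrays of GID1A were all lower, though replicate 2 of 6 d lay close to replicate 3 of 0 d (log2 fold change -0.53, SE 0.24, limma adjusted p = 0.304). GID1B (CUST_13663) had overlapping arrays, with a log2 fold change of -0.41 (SE 0.37).

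The 4 probes of DELLA repressors did not share a direction. RGL1 (CUST_13587) had log2 signals of 12.61, 13.19 and 13.18 at 6 d and 11.84, 12.01 and 12.03 at 0 d (log2 fold change 1.03, SE 0.21, limma adjusted p = 0.0663). RGA2 (CUST_14700) had 14.48, 14.68 and 14.67 at 6 d and 13.62, 13.75 and 14.21 at 0 d (log2 fold change 0.75, SE 0.26). Both were higher on every 6 d array, whereas RGA1 (CUST_10848) was lower on each, with log2 signals of 9.22, 9.11 and 9.10 at 6 d and 9.48, 9.54 and 9.97 at 0 d (log2 fold change -0.52, SE 0.15). GAI (CUST_11249) had overlapping arrays and a log2 fold change of 0.75 (SE 0.35). SPY (CUST_12553), a negative regulator of GA signalling, had overlapping arrays as well, with a log2 fold change of 0.26 (SE 0.18). No DELLA probe was called.

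Further GA response probes included alpha-amylase, the starch-degrading enzyme that GA induces in cereal grains. AMY (CUST_12838) had log2 signals of 5.94, 7.02 and 4.79 at 6 d and 14.39, 12.89 and 12.62 at 0 d. The groups lay far apart, with 2 of the 6 d arrays well above background. The later arrays ranged from 5.61 to 14.01, and the probe was not called (log2 fold change -7.38, SE 1.65, limma adjusted p = 0.0873). The alpha-amylase probes AMY1 (CUST_10207) and, from the starch list, AMY3 (CUST_9126) had overlapping arrays, with log2 fold changes of 0.01 and 0.09. The kinase SNRK2.3 (CUST_11019), of abscisic acid signalling, the transcription factor TCP14 (CUST_11703) and the chromatin remodeller PKL (CUST_5037) were lower on every 6 d array, with log2 fold changes of -0.59, -0.44 and -0.31. A second PKL probe (CUST_5859) had overlapping arrays and a log2 fold change of 0.20. GASA3 (CUST_13720), of a family of small GA-regulated proteins, was higher on every 6 d array, with a log2 fold change of 0.42 (SE 0.33). The other probes with a GASA symbol, GASA1 (CUST_11861), GASA2 (CUST_12812) and GASA4 (CUST_1266), had overlapping arrays and log2 fold changes of -0.37, -0.06 and -0.19. Also higher on every 6 d array were AT1G22690 (CUST_7697), AT1G70000 (CUST_9999), AT3G18050 (CUST_11800), AT2G31730 (CUST_13414) and PEX11 (CUST_4428). Their log2 fold changes were 0.71, 0.63, 0.54, 0.20 and 0.20.

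**Figure D3:**
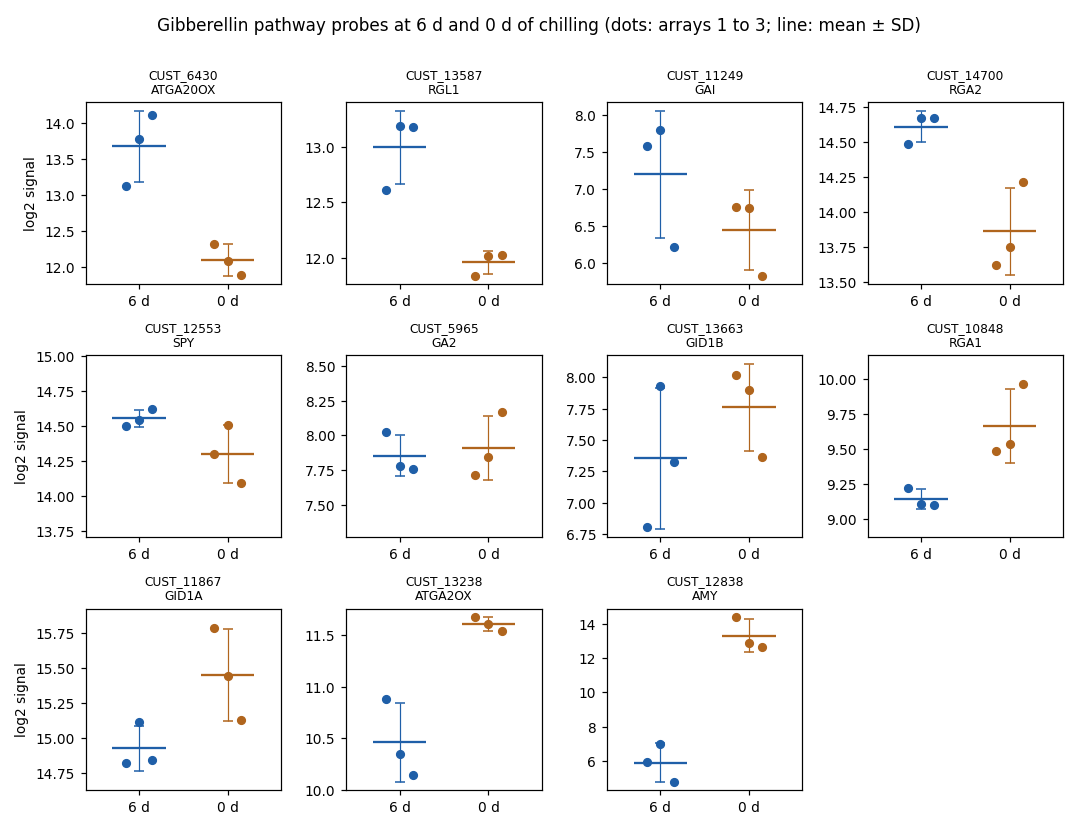
Log2 signal of 11 probes of GA synthesis, inactivation, reception and signalling and of alpha-amylase, with 6 d on the left and 0 d on the right of each panel. Dots are the 3 arrays of a time in the order of replicate and lines are means with SD. GA20ox, RGL1 and RGA2 lay higher on all 6 d arrays, RGA1, GID1A, GA2ox and AMY lower, and none of these was called.

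The other groups were drawn from the descriptions and categories of the study's tables, which hold probes that it had called on these arrays, so that their counts are not independent evidence. The probes of carbon metabolism, DNA replication, the cell cycle, transport, the proteasome, the ribosome, the spliceosome and abiotic stimulus all stood in the study's table of clusters over 6 to 24 d, in which 368 of 1825 probes (20.2%) were higher and 210 lower on every 6 d array. For the citrate cycle list, 11 of 14 probes were higher on all arrays of 6 d and none was lower. Its median log2 fold change was 0.31, against 0.03 over all probes. Besides enzymes of the mitochondrial cycle, which oxidizes acetyl groups, that list holds pyruvate dehydrogenase probes and the cytosolic cICDH. For glycolysis, 10 of 20 probes were higher on every 6 d array and none lower, with a median of 0.22. For the pentose phosphate pathway it was 4 of 9, with a median of 0.22. Glycolysis and the citrate cycle share 5 probes, PDH-E1, MAB1, EMB3003, AT3G13930 and LPD1, and glycolysis and the pentose phosphate pathway share 3. No probe of the 3 pathways was called, and the differences were small. With scaling to the 75th percentile 7 citrate cycle and 7 glycolysis probes were higher on every 6 d array, and without normalization 10 and 8, with none lower in either case. In replicate 1 of 6 d alone, which lay in the row of the 0 d arrays, the median probe was above the 0 d mean by 0.32 for the citrate cycle and 0.28 for glycolysis.

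Enolase, LOS2 (CUST_4306), had the largest difference of the glycolysis probes. It had log2 signals of 8.72, 8.86 and 8.94 at 6 d and 7.47, 7.86 and 8.43 at 0 d (log2 fold change 0.92, SE 0.22, limma adjusted p = 0.0995). A fructose-bisphosphate aldolase, AT3G52930 (CUST_3096), had 16.66, 16.63 and 16.63 at 6 d and 15.77, 15.80 and 16.38 at 0 d. For both, replicate 3 of 0 d lay closest to the 6 d arrays. The plastid pyruvate kinase PKP-ALPHA (CUST_6933) and triose phosphate isomerase, TPI (CUST_10519), had log2 fold changes of 0.43 and 0.27, with all 6 d arrays higher. Phosphofructokinase, PFK3 (CUST_3012), and hexokinase, HXK3 (CUST_9604), had overlapping arrays, with log2 fold changes of 0.01 and 0.03. The alcohol dehydrogenase ADH1 (CUST_4972) ranged from 6.16 to 6.87 at 6 d and from 6.00 to 8.57 at 0 d.

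At the entry to the citrate cycle, the pyruvate dehydrogenase subunit MAB1 (CUST_7515) had log2 signals of 15.40, 15.51 and 15.40 at 6 d and 14.91, 14.89 and 15.02 at 0 d (log2 fold change 0.50, SE 0.13, limma adjusted p = 0.112). A second probe annotated as MAB1 (CUST_11142) had overlapping arrays and a log2 fold change of 0.24. Within the cycle, fumarase, FUM1 (CUST_2633), had 6.22, 6.56 and 6.45 at 6 d and 5.46, 5.89 and 5.51 at 0 d (log2 fold change 0.79, SE 0.27), with 2 of the 0 d arrays well above background. Malate dehydrogenase, MDH (CUST_4676), had 15.38, 15.24 and 15.07 at 6 d and 14.87, 14.73 and 14.78 at 0 d (log2 fold change 0.44, SE 0.13). Citrate synthase, ATCS (CUST_6616), and the succinate dehydrogenase subunit SDH2-2 (CUST_2747) had log2 fold changes of 0.37 and 0.21. The cytosolic isocitrate dehydrogenase cICDH (CUST_425), outside the mitochondrial cycle, had 0.29. The groups did not overlap for any of these 5 enzymes. The list of oxidative phosphorylation gave 5 of 17 probes higher on every 6 d array and 3 lower. It is wider than the respiratory chain, as it includes the vacuolar proton pump AVP1 among the higher probes. The 5 and 3 are thus not counts of respiratory chain probes. The lower probes were ndhF (CUST_12992), AT5G55290 (CUST_13160) and AT3G58730 (CUST_3624), with log2 fold changes of -0.82, -0.21 and -0.36. Whether these 3 belong to the respiratory chain was not examined.

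**Figure D4:**
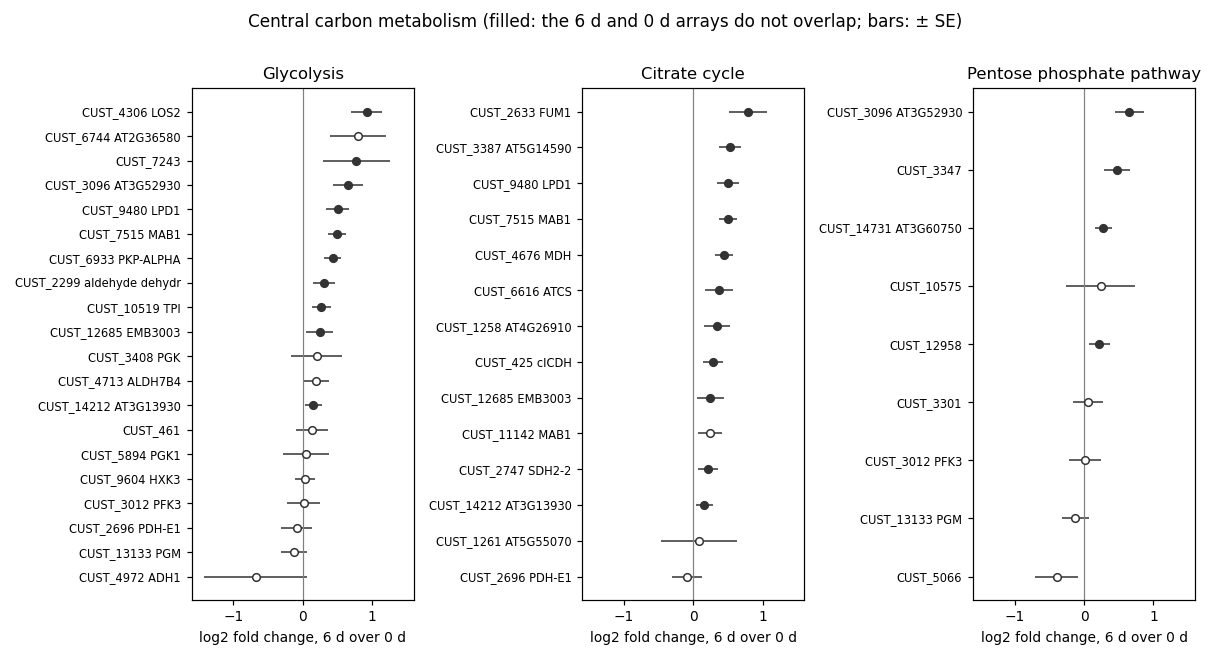
Log2 fold change of 6 d over 0 d with its standard error (horizontal axis) for the probes of 3 pathways of carbon metabolism (one probe per line). Filled points are probes whose 6 d and 0 d arrays did not overlap, which were 10 of 20 for glycolysis, 11 of 14 for the citrate cycle and 4 of 9 for the pentose phosphate pathway, all to the right of 0.

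Starch and sucrose metabolism did not share that pattern. Of its 16 probes, 3 were higher on every 6 d array and 2 were lower, and the order reversed to 2 higher and 4 lower with scaling to the 75th percentile. The starch synthesis enzyme APL3 (CUST_14327), a subunit of ADP-glucose pyrophosphorylase, had log2 signals of 15.38, 15.04 and 15.40 at 6 d and 14.81, 14.65 and 13.92 at 0 d. The beta-amylase CT-BMY (CUST_3046), which degrades starch, had 15.70, 15.37 and 15.76 at 6 d and 16.06, 16.31 and 16.38 at 0 d. APL3 was thus higher on all 6 d arrays and CT-BMY lower, with limma adjusted p of 0.234 and 0.469. Another beta-amylase, BMY3 (CUST_13030), and the starch branching enzyme SBE2.1 (CUST_14549) had overlapping arrays, with log2 fold changes of -0.24 and -0.34.

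Transport probes lay near the shares of the table they came from. Of 134, every 6 d array was above every 0 d array for 33 (24.6%) and below for 10 (7.46%), and the counts were 26 and 14 with scaling to the 75th percentile. In cluster III of the table, which held 70 of the 134, 24.8% of all 347 probes were higher and 7.78% lower. The nucleobase-ascorbate transporter NAT7 (CUST_12727) had log2 signals of 13.44, 13.74 and 13.45 at 6 d and 12.30, 12.72 and 12.65 at 0 d (log2 fold change 0.98, SE 0.19, limma adjusted p = 0.0575). The peroxisomal adenine nucleotide carrier PNC1 (CUST_13412) had 11.81, 12.09 and 11.92 at 6 d and 10.94, 11.26 and 11.27 at 0 d (log2 fold change 0.78, SE 0.18). The plastid dicarboxylate transporter DiT1 (CUST_11300) and the vacuolar proton pump AVP1 (CUST_12531) had log2 fold changes of 0.66 and 0.47. The sucrose transporter SUT4 (CUST_15205) had 7.25, 7.25 and 7.26 at 6 d and 6.92, 7.16 and 6.85 at 0 d. All 5 were higher on every 6 d array and none was called.

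Of 28 probes of the proteasome and ubiquitin system, which degrades tagged proteins, 8 (28.6%) were higher on every 6 d array and 1 was lower, with a median log2 fold change of 0.24. Cluster III of the table held 19 of the 28, of which 5 were higher and 1 lower. Of all 347 probes of that cluster, 24.8% were higher and 7.78% lower, so the count was near the share of its source. ASK2 (CUST_5850), a Skp1-like subunit of ubiquitin ligases, had log2 signals of 14.14, 14.20 and 14.14 at 6 d and 13.38, 13.72 and 13.56 at 0 d (log2 fold change 0.61, SE 0.14, limma adjusted p = 0.0873). The proteasome ATPases RPT1A (CUST_4152) and RPT6A (CUST_11327) had log2 fold changes of 0.60 and 0.54, and the core subunits PAD2 (CUST_4023) and PBC1 (CUST_10423) 0.46 and 0.29. The ubiquitin-conjugating enzyme UBC28 (CUST_4365) was the probe that lay lower, with a log2 fold change of -0.27.

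Markers of dividing cells were examined as DNA replication, cell cycle and histone probes. Of 11 probes of DNA replication, 6 were higher on every 6 d array and 1 was lower, with a median log2 fold change of 0.44. The DNA polymerase subunit ATDPB2 (CUST_12883) had log2 signals of 12.93, 13.39 and 13.28 at 6 d and 12.47, 11.84 and 12.16 at 0 d (log2 fold change 1.04, SE 0.26, limma adjusted p = 0.108). The replication licensing factor MCM3 (CUST_10183) had 8.24, 8.52 and 8.77 at 6 d and 8.02, 8.06 and 7.28 at 0 d. TIL1 (CUST_12182) was the probe that lay lower, with a log2 fold change of -0.24. The overlapping probes were PCNA1 (CUST_4202), POLD4 (CUST_4380), an ICU2 probe (CUST_5812) and CUST_10006, with log2 fold changes of 0.05, 0.08, -0.05 and 0.59. The summed signal of the 11 probes was 165500, 156500 and 182800 at 6 d and 113800, 129400 and 124400 at 0 d, without overlap.

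The 36 cell cycle probes gave 7 higher and 3 lower on every 6 d array, or 4 and 4 with scaling to the 75th percentile. WEE1 (CUST_9283), a kinase that holds back entry into mitosis, had log2 signals of 11.78, 12.40 and 12.25 at 6 d and 10.94, 10.98 and 11.33 at 0 d (log2 fold change 1.06, SE 0.25, limma adjusted p = 0.0909). Outside the list, a probe matched to SMC3, a subunit of cohesin (CUST_11082), had 5.68, 6.78 and 6.85 at 6 d and 4.10, 5.28 and 4.52 at 0 d, with 1 of the 0 d arrays well above background. The D-type cyclins CYCD1;1 (CUST_5918), CYCD2;1 (CUST_5740) and CYCD3;1 (CUST_1165), which act at the start of the cycle, had overlapping arrays, with log2 fold changes of -0.01, 0.32 and -0.16.

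Of 9 core histone probes 3 were higher and 1 was lower on every 6 d array. Outside that list, a probe described as HTB1, a histone H2B (CUST_5339), had log2 signals of 17.47, 17.66 and 17.41 at 6 d and 16.06, 15.83 and 16.10 at 0 d (log2 fold change 1.51, SE 0.34, limma adjusted p = 0.0873). A histone H2A (CUST_1098) had 16.74, 16.77 and 16.78 at 6 d and 15.50, 15.56 and 16.51 at 0 d, and a histone H3 (CUST_2804) and a histone H4 (CUST_6113) were likewise higher on every 6 d array. Another histone H4 probe (CUST_67) was lower, with 10.90, 10.58 and 10.38 at 6 d and 13.50, 12.24 and 13.36 at 0 d. The summed signal of the 9 probes was 612900, 645500 and 618600 at 6 d and 355000, 300000 and 605900 at 0 d. Replicate 3 of 0 d thus lay near the 6 d arrays and apart from the other 0 d arrays, and without it the median log2 fold change of the list was 0.96 instead of 0.29.

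Of 13 probes of the cytoskeleton, 4 were higher on every 6 d array, fimbrin included, and 2 were lower. A TUB8 beta-tubulin probe (CUST_962) had log2 signals of 13.44, 14.60 and 14.02 at 6 d and 11.69, 12.15 and 13.21 at 0 d (log2 fold change 1.67, SE 0.44, limma adjusted p = 0.118). A second TUB8 probe (CUST_14508) was higher on every 6 d array too, with a smaller log2 fold change of 0.38 (SE 0.20, limma adjusted p = 0.369). TUB7 (CUST_8326) had 6.64, 7.12 and 6.82 at 6 d and 5.07, 5.63 and 6.50 at 0 d. A further beta-tubulin probe (CUST_12380) lay the other way, with 6.36, 6.79 and 6.99 at 6 d and 7.80, 7.58 and 7.67 at 0 d, and actin depolymerizing factor (CUST_14978) had a log2 fold change of -0.31. Tubulin genes are near copies of each other, so their probes may share signal.

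Photosynthesis probes, taken as markers of green tissue, had the highest share of lower probes. All 6 were well above background on all arrays. Of these, 5 were lower on all arrays of 6 d and none was higher, with a median log2 fold change of -0.55. The counts were 4 lower and none higher with scaling to the 75th percentile, and 3 lower and 1 higher without normalization. A chlorophyll a/b binding protein (CUST_10302), which collects light, had log2 signals of 10.11, 9.31 and 9.61 at 6 d and 11.05, 11.53 and 11.17 at 0 d (log2 fold change -1.57, SE 0.30, limma adjusted p = 0.0575). A second one (CUST_4274) had 10.37, 9.08 and 10.28 at 6 d and 11.17, 10.89 and 10.99 at 0 d (log2 fold change -1.11, SE 0.37). A photosystem I subunit (CUST_14304), photosystem II protein I (CUST_5582) and the photosystem II 44 kDa protein (CUST_13459) had log2 fold changes of -0.63, -0.47 and -0.41. PSBO2 (CUST_6243), of the oxygen-evolving complex, had overlapping arrays and a log2 fold change of 0.12. The summed signal of the 6 probes, 161100, 135300 and 144100 at 6 d and 133900, 155700 and 144900 at 0 d, overlapped between the groups. The part of green or dividing tissue in the other results was not tested.

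Among transcription factors, AP2-type factors, which include the CBF regulators of cold response, gave 2 of 12 higher and 5 lower on every 6 d array, with a median log2 fold change of -0.47. An AP2/ERF probe (CUST_15124) had log2 signals of 8.39, 7.55 and 7.27 at 6 d and 9.76, 9.92 and 9.03 at 0 d (log2 fold change -1.83, SE 0.37, limma adjusted p = 0.0691). A probe similar to ethylene response factor 4 (CUST_1238) had 9.49, 8.32 and 8.74 at 6 d and 10.73, 10.31 and 10.91 at 0 d (log2 fold change -1.80, SE 0.47). The 2 probes similar to CBF4 differed. The first (CUST_2102) was lower on every 6 d array, with 7.88, 7.96 and 6.87 at 6 d and 8.18, 8.22 and 8.68 at 0 d. The second (CUST_11130) had overlapping arrays, with 14.51, 14.56 and 13.59 at 6 d and 13.20, 13.39 and 14.00 at 0 d. ICE1 (CUST_6424), which activates CBF genes in Arabidopsis, had 8.45, 8.87 and 7.87 at 6 d and 7.20, 6.85 and 7.54 at 0 d (log2 fold change 1.20, SE 0.58, limma adjusted p = 0.337). The calmodulin-binding activator CAMTA (CUST_14074), a cold-signalling factor in Arabidopsis, had 5.66, 6.11 and 6.09 at 6 d and 5.25, 5.47 and 5.30 at 0 d, with 1 of the 0 d arrays well above background. Neither ICE1 nor CAMTA was called, though all 6 d arrays were higher for both.

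Of 8 NAC factors 3 were lower and 1 was higher on every 6 d array, or 2 and 2 without normalization between arrays. NAC017 (CUST_1111) had log2 signals of 15.78, 15.68 and 15.68 at 6 d and 16.22, 16.39 and 16.05 at 0 d. The ethylene regulator EIN3 (CUST_5911) had 5.61, 4.66 and 4.99 at 6 d, with 1 array well above background, and 5.87, 5.83 and 6.58 at 0 d. Its log2 fold change was -1.01 (SE 0.41). EIL3 (CUST_7996), of the same list, went the other way, with overlapping arrays (log2 fold change 1.55, SE 0.54, limma adjusted p = 0.206). EIN2 (CUST_2552) had overlapping arrays as well. Of 12 circadian and rhythmic probes, 2 were higher and 3 lower on every 6 d array, and 7 had overlapping arrays. The light receptor CRY1 (CUST_9224) and CUL1 (CUST_4460) were higher, with log2 fold changes of 0.47 and 0.16. CRY2 (CUST_2240), PRR5 (CUST_12210), of the circadian clock, and CKB2 (CUST_7167) were lower, at -0.35, -0.44 and -0.80.

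Stress proteins were little different. Of 17 heat shock proteins and chaperones 3 were higher on every 6 d array and none lower, a count that changed to 2 and 3 with scaling to the 75th percentile. HSC70-1 (CUST_5600) had log2 signals of 6.15, 6.26 and 5.59 at 6 d and 5.39, 3.35 and 3.82 at 0 d, with 1 of the 0 d arrays well above background. Among 11 antioxidant probes 3 were higher and 1 was lower on every 6 d array, and catalase, CAT1 (CUST_4390), had overlapping arrays. Glutathione reductase, GR1 (CUST_1654), had 15.18, 15.42 and 15.42 at 6 d and 14.99, 15.12 and 14.89 at 0 d. Of the 174 probes under response to abiotic stimulus, 33 (19.0%) were higher and 19 (10.9%) lower on every 6 d array, close to the shares of the cluster table.

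**Figure D5:**
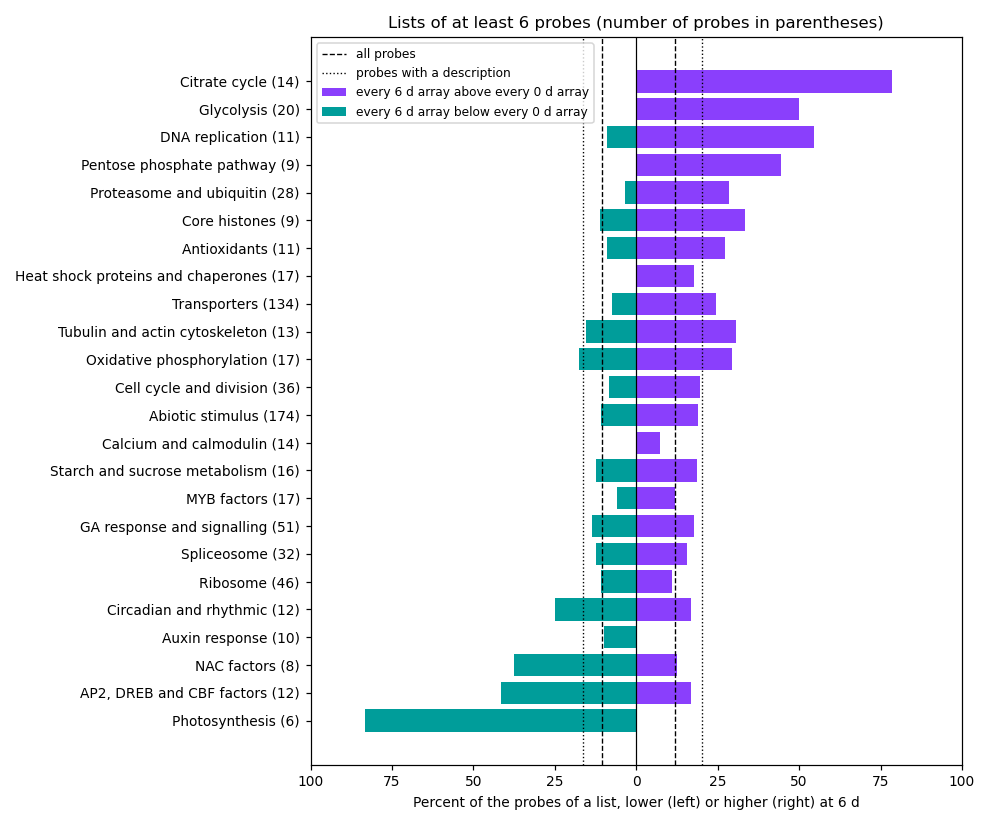
Share of the probes of each group (horizontal axis, percent) for which every 6 d array lay above (right) or below (left) every 0 d array, for groups of at least 6 probes. Dashed lines give the shares over all probes, 11.9% and 10.4%, and dotted lines those over the probes with a description, 20.3% and 16.4%. The citrate cycle, with 78.6% higher, and photosynthesis, with 83.3% lower, lay farthest from them.

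Ribosomal proteins and the spliceosome lay near the shares over all probes. Of 46 ribosome probes 5 were higher and 5 lower on every 6 d array (10.9% each). Of 32 spliceosome probes 5 were higher (15.6%) and 4 lower (12.5%). With scaling to the 75th percentile these became 3 and 9 for the ribosome and 1 and 7 for the spliceosome. Of 17 MYB factors 2 were higher and 1 was lower, and of 14 calcium and calmodulin probes 1 was higher. Of the 10 auxin, 5 abscisic acid, 4 ethylene and 4 WRKY probes, 1 in each group was lower on every 6 d array and none was higher.

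Some of the largest differences came from probes that were near background on one set of arrays and bright on the other. A probe similar to MRE11 (CUST_2251), of DNA break repair, had log2 signals of 3.11, 3.90 and 3.55 at 6 d, none of them well above background, and 15.35, 14.98 and 15.06 at 0 d. It was at least 1049-fold lower at 6 d and was not called (limma adjusted p = 0.168). Arrays of the same later time lay far apart at 12, 18 and 24 d. They were 3.21, 15.40 and 14.96 at 12 d, 15.19, 3.29 and 16.86 at 18 d, and 2.84, 12.27 and 12.63 at 24 d. At 15 d all were bright, at 15.25, 16.26 and 13.86. With only the 6 arrays compared in the fit, which leaves those times out, the limma adjusted p was 8.5e-05. A cell wall protein probe (CUST_2252) was dark on the same 6 d arrays, with 4.36, 4.06 and 3.48 at 6 d and 10.26, 10.53 and 9.79 at 0 d, and had 3.31, 10.21 and 9.85 at 12 d. The phenylalanyl-tRNA synthetase probe (CUST_7126) was bright on all 6 d arrays, at 14.66, 14.69 and 14.05, while the 0 d arrays differed among themselves, at 5.13, 3.07 and 13.46. Its log2 fold change of 7.25 (SE 2.29, limma adjusted p = 0.175) thus rests on 2 of the 3 arrays of 0 d.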

How the data were processed

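RNA of flower buds was hybridized to single-channel arrays, 1 array for each of 18 samples (6 times, 3 biological replicates). Intensity in the deposited scanner output was background-subtracted by Agilent Feature Extraction 10.5 (version per the file headers) and not yet normalized across arrays. A second deposited table, of quantile-normalized log2 signals made by the authors, served as an alternative. Here the processed signals were taken to log2, non-uniform and outlier spots were left out (4 to 33 probes on the 6 arrays compared), replicate spots were averaged for each probe, and quantile normalization followed. Control spots (536 of 15715) were left out. A mean for each time was fitted to all 18 arrays with limma 3.58.1 in R 4.3.3 (statmod 1.5.0, jsonlite 2.0.0), with Benjamini-Hochberg adjustment over 14957 probes and a threshold of 0.05. The fit was tested on simulated data. The number of arrays limits the precision. With 3 against 3 arrays alone, an exact permutation test cannot go below a two-sided p of 0.1.

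Probe names are closest matches in other species, from the parts of the study's tables held here, which describe 3747 probes. The 27 gene lists and the rule for named probes were chosen with earlier results of these data known. Named were all probes called, the GA enzyme, receptor, DELLA and SPY probes and others of the GA list without overlap between groups, the 12 highest and 12 lowest named probes without overlap, list members without overlap, and genes the paper names. Outside the rule lie PSBO2, the second PKL probe, GASA1, GASA2, GASA4, AMY1, AMY3, BMY3, SBE2.1, EIL3 and the overlapping DNA replication probes. They were chosen after their values were seen, to fill out a list or family. Slide and row were read from the array position in the file headers. Columns with the authors' own comparisons (fold changes, p-values, cluster ratios and a mark of differing GA probes) were not used, but membership in the study's tables and clusters, which rests on those comparisons, gave the background shares. Other settings were 75th percentile or no normalization, normexp (offset 50, on the median signal), a filter on dim probes, slide, row and replicate blocks, array weights, other tests and thresholds, and each array left out.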

Additional observations from a re-analysis of the deposited data

How the results depend on the processing

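The fold changes of the 12 called probes kept their direction under every setting run, but their calls lay near the threshold, and the number of probes called between 6 d and 0 d (12) depended on the settings. It was 5 with only the 6 arrays compared, 0 with only the 8 arrays of slide 1, 1 with slide and row as a block, 8 with the 75th percentile, 0 without normalization, 38 with normexp, 36 with only probes above background, 23 with a trended and robust prior, 531 with array quality weights, 8 with a 2-fold threshold and 2326 at an unadjusted p. The methods' ANOVA and Tukey's test gave 553, and 0 after Benjamini-Hochberg adjustment. With each array left out in turn, the count ranged from 0 to 144. Leaving out 6 d replicate 1 gave 144, 24 d replicate 1 41, 12 d replicate 2 34, 24 d replicate 3 22, 12 d replicate 1 5, 12 d replicate 3, 15 d replicate 3 and 18 d replicate 2 4 each, 6 d replicate 3 3, 18 d replicate 1 2 and 0 d replicate 1 1. Leaving out 0 d replicate 2, 6 d replicate 2, 15 d replicate 1 or 2, 18 d replicate 3 or 24 d replicate 2 gave 0. The causes were not tested. With the row as a block, the difference rests on replicate 1 of 6 d alone. With the replicate number as a block, 0 probes were called. Correlations of deviations between arrays of the same replicate number were -0.15, -0.03 and -0.18, and between arrays of different numbers -0.04 to 0.17. Deviations from a mean of 3 arrays cancel within each time, so these values cannot settle whether the numbers pair the samples.

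Between 12 d and 6 d (0 called), 1 probe was called with only the arrays compared, 10 with slide as a block, 16 with slide and row, 950 at an unadjusted p, and 0 to 27 with an array left out. Between 12 d and 0 d (468 called), the count was 0 with only the arrays compared, 0 with only slide 1, 4 with slide and row, 280 with the replicate block, 59 without normalization, 177 with array weights, 217 with a 2-fold threshold, 3310 at an unadjusted p, and 91 to 631 with an array left out. GA2 (CUST_5965), at -0.05, changed sign with slide and row as a block (0.11), without normalization (0.0552), with normexp (0.10) and without 0 d replicate 3 (0.0736). Without normalization the median log2 fold change of all probes was 0.18 and 66.7% of probes lay above 0, against 53.0% in the values reported.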
